A study of Rattus norvegicus with 8 samples.

Results

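Klf genes encode Krüppel-like transcription factors, and the rat genes Klf4, Klf6, Klf9, Klf10 and Klf15 were followed here through every probe set whose platform annotation gave 1 of these symbols alone. That rule found 5 of the 10411 genes with a symbol of their own, read by 8 of the 15923 probe sets on the array, 3 for Klf9, 2 for Klf6 and 1 each for Klf4, Klf10 and Klf15. A probe set is a group of short probes read as 1 transcript. The 5 genes were chosen with earlier results of these data known.

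RAE 230A arrays of Affymetrix were used to read total RNA from a segment of the right brain hemisphere of 7-week-old male Wistar rats, 2 h after surgery per the labels. The 4 groups were MCAO candesartan, MCAO vehicle, sham candesartan and sham vehicle. MCAO is occlusion of the right middle cerebral artery, here for 90 min with reperfusion, a model of transient focal stroke, and sham is the operation without occlusion. All rats were pretreated for 5 days with 2 injections a day of candesartan, a blocker of the angiotensin AT1 receptor, at 0.1 mg/kg, or of saline vehicle, except that the protocol of the array MCAO candesartan 2 named no pretreatment and its group came from its description. Each array held RNA pooled from 2 rats, and each group had 2 independent pools.

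Klf proteins bind GC-rich and CACCC-type DNA through a block of zinc fingers at their carboxyl end and differ in the rest of the protein, so that some mainly activate and others mainly repress transcription. Several are induced quickly by growth factors, injury or hormones. In the nervous system Klf4 and Klf9 are known as brakes on axon growth, while Klf6 is known to favour axon regrowth in zebrafish.

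The promoters of Klf6, whose 2 probe sets had the highest MCAO changes of the 5 genes over both pretreatments, and of Klf9, whose probe sets did not follow it, are shown to give the letters near each start site. They are the 250 bases upstream of the start in RefSeq's promoter sequences for build GRCr8. Of the 5 genes 4 matched that table, Klf10 being the exception, and the windows of Klf4 and Klf15 overlapped the span of their own genes and are not printed. Klf6 is at chr17:69458479-69458728 on the minus strand and Klf9 at chr1:230126396-230126645 on the plus strand. Capitals mark the matches of the motifs searched on both strands, and they are CArG box and GC box in Klf6 and CACCC and TGACG in Klf9.
Klf6: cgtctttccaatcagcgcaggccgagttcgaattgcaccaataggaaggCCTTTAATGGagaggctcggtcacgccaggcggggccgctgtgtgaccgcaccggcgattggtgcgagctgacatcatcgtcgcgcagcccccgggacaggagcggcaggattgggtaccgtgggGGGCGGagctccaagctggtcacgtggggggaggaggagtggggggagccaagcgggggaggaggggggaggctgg
Klf9: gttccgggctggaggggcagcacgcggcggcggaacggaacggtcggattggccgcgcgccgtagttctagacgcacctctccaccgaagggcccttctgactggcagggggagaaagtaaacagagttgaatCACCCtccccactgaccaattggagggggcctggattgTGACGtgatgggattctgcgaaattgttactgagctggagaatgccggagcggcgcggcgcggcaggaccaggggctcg

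The CArG box is the site of serum response factor, the activator of many immediate early genes, and its match began at position -201 from the Klf6 start. A CArG box stood in 1.50% of the same 250-base windows of 33469 genes. The GC box GGGCGG began at position -76 and was found in 30.5% of windows. In Klf9 the CACCC box, the letters that Klf proteins bind, began at position -117, and 49.2% of windows held one. The shorter site TGACG of the cyclic AMP response element began at position -79 of Klf9 and was in 18.2% of windows. Neither window held the whole element TGACGTCA, present in 1.59% of windows, or AGAACA, a part of the glucocorticoid response element,, present in 17.5%. No motif overlapped another here, and a match describes letters, not a bound site.

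The arrays had nearly equal trimmed means as deposited, differing by 0.000426%. Their medians ran from 1257.7 in MCAO candesartan 1 to 1378.2 in MCAO vehicle 2. MCAO candesartan 2 stood apart, with a mean correlation to the other arrays of 0.959 against at least 0.976 elsewhere. The operation was read through known response genes. Fos, Arc, Hspa1a and Atf3 were called higher after MCAO in each pretreatment and over both (adjusted p under the threshold by limma, 4 of 4 genes each). Of all probe sets 0.262% were called higher with vehicle, 0.213% with candesartan and 0.417% over both. Atf3 read at most 177.5 on the sham arrays and was tested through its MCAO arrays alone. The 4 genes were chosen with earlier results of these data known, so that their calls are not a test of the operation. On every array Snap25, a marker of neurons, read 55509.4 or more and Gfap, a marker of astrocytes, 14149.1 or more, as brain tissue would give. The dimmest of the neuron and astrocyte markers was Slc1a2 of astrocytes, at 870.8 to 1439.7. These markers cannot tell which part of the brain was taken. Of the 8 Klf probe sets 7 passed a filter on low signals, which asked for a signal above 916.3 on at least 2 of the 8 arrays. The exception was the Klf9 probe set 1390076_at.

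**Figure D1:**
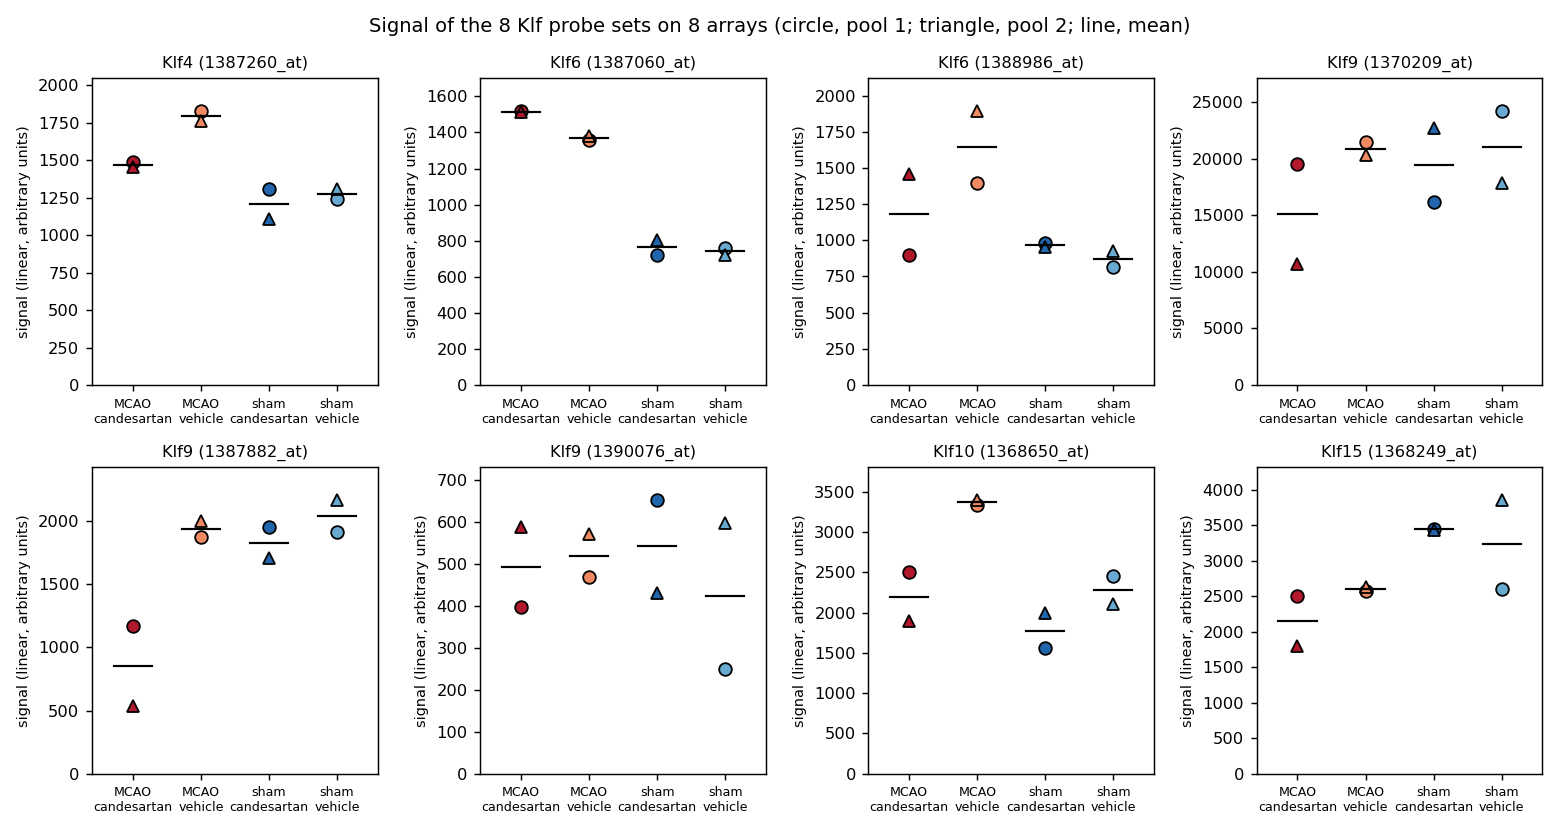
Linear signal of the 8 Klf probe sets (y axis, arbitrary units, from 0) in 4 groups (x axis), with circles for pool 1, triangles for pool 2 and a line at the mean. Klf6 1387060_at and Klf4 separate all 4 MCAO arrays from all 4 sham arrays, and the MCAO candesartan pools are lowest in Klf9 1387882_at and Klf15.

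Klf6, an immediate early Krüppel-like factor of injured tissue, had the clearest response. Its probe set 1387060_at read 1517.2 and 1514.1 in the MCAO candesartan pools, against 722.4 and 804.8 in the sham candesartan pools. With vehicle it read 1358.7 and 1377.7 after MCAO, against 762 and 721.4 after sham. All 4 MCAO arrays were above all 4 sham arrays. From high to low the order was MCAO candesartan, MCAO vehicle, sham candesartan and sham vehicle, with means of 1515.7, 1368.2, 763.6 and 741.7. The MCAO pair did not overlap, and the sham pair did.

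Over both pretreatments Klf6 1387060_at rose by 0.69 ± 0.11 (SE, on the log2 scale of signal plus an offset of 369.9; adjusted p = 0.0237 by limma, 95% interval 0.44 to 0.94). It passed the filter through its MCAO arrays alone, since its sham arrays read at most 804.8, under the minimum signal of 916.3. Its call and its rank thus depend on a filter that it met only in the group where it was high. It ranked 40 of 10310 probe sets by p. Of these 10310, 0.417% were called higher, so that 1 call among 7 Klf probe sets stands beside that background. The effect was 0.74 ± 0.16 in candesartan rats (adjusted p = 0.155 by limma) and 0.65 ± 0.16 in vehicle rats (adjusted p = 0.235 by limma), and neither passed the threshold of 0.05. The call was lost without the filter on low signals (adjusted p = 0.0700 by limma), and also without any 1 of the 4 sham arrays or either MCAO vehicle array (adjusted p = 0.072 to 0.168 by limma). It held without MCAO candesartan 1 (adjusted p = 0.0180) or MCAO candesartan 2 (adjusted p = 0.0338).

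The other Klf6 probe set, 1388986_at, gave a different picture with the drug. It read 897.8 and 1459.2 in MCAO candesartan, against 981.8 and 951.3 in sham candesartan. In MCAO vehicle it read 1395.7 and 1891.1, against 812.3 and 926.8 in sham vehicle. The vehicle groups did not overlap, while MCAO candesartan 1 lay below both sham candesartan pools. Its MCAO effect was 0.19 ± 0.21 with candesartan and 0.69 ± 0.21 with vehicle, and 0.44 ± 0.15 over both (adjusted p = 0.344 by limma), which was not called. The order of means was MCAO vehicle 1643.4, MCAO candesartan 1178.5, sham candesartan 966.6 and sham vehicle 869.6, and of these neighbours the 2 MCAO groups overlapped, as did MCAO candesartan and sham candesartan.

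Klf4, a factor of stem cells and of vascular and barrier cells, was also higher on every MCAO array. It read 1487.2 and 1454.2 in MCAO candesartan, against 1307.2 and 1106.3 in sham candesartan, and 1826.1 and 1762.7 in MCAO vehicle, against 1243 and 1307.7 in sham vehicle. The lowest MCAO array thus read 1454.2 and the highest sham array 1307.7. The effect over both pretreatments was 0.31 ± 0.10 (adjusted p = 0.334 by limma, 95% interval 0.08 to 0.54), and 6.65% of all probe sets had a larger change. It was not called. By mean the order was MCAO vehicle, MCAO candesartan, sham vehicle and sham candesartan, and only the 2 sham groups overlapped as neighbours.

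Klf10, first found as a gene induced by transforming growth factor beta and a repressor that recruits the Sin3 complex, was highest in MCAO vehicle. Its signal was 2503.5 and 1893.6 in MCAO candesartan, against 1564.2 and 1994.1 in sham candesartan, and 3340.8 and 3400.4 in MCAO vehicle, against 2452 and 2114.1 in sham vehicle. Both MCAO vehicle pools were above every other array, and with candesartan the 2 operations overlapped. The MCAO effect was 0.25 ± 0.16 with candesartan and 0.50 ± 0.16 with vehicle, and neither was called (adjusted p = 0.540 and 0.476 by limma). By mean the order below MCAO vehicle was sham vehicle, MCAO candesartan and sham candesartan. Sham vehicle overlapped MCAO candesartan, which overlapped sham candesartan.

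Klf15, a regulator of glucose and amino acid metabolism that glucocorticoids induce, ran the other way. It read 2498.5 and 1792.6 in MCAO candesartan, against 3447.8 and 3433.8 in sham candesartan. It read 2579 and 2635.5 in MCAO vehicle, against 2603 and 3853.7 in sham vehicle. The candesartan groups did not overlap and the vehicle groups did, because sham vehicle 1 read between the 2 MCAO vehicle pools. The effect was -0.61 ± 0.18 with candesartan (adjusted p = 0.260 by limma), -0.25 ± 0.18 with vehicle (adjusted p = 0.856 by limma) and -0.43 ± 0.13 over both (adjusted p = 0.254 by limma), and no contrast was called. By mean the order was sham candesartan, sham vehicle, MCAO vehicle and MCAO candesartan, in which only MCAO vehicle and MCAO candesartan did not overlap as neighbours.

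Klf9, a repressor induced by thyroid hormone and glucocorticoids, was read by 3 probe sets, of which 1 was too dim for the filter. Probe set 1387882_at gave 1167.3 and 532.9 in MCAO candesartan, against 1955.1 and 1703.6 in sham candesartan, and 1875.6 and 1996.6 in MCAO vehicle, against 1913 and 2166.6 in sham vehicle. Both MCAO candesartan pools were below all 6 other arrays, which lay between 1703.6 and 2166.6. Its MCAO effect was -0.90 ± 0.22 with candesartan (adjusted p = 0.194 by limma, 95% interval -1.38 to -0.41) and -0.06 ± 0.22 with vehicle (adjusted p = 0.983 by limma). Neither was called. By mean sham vehicle was highest, then MCAO vehicle and then sham candesartan, which overlapped as neighbours, and MCAO candesartan was lowest, apart from them.

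Probe set 1370209_at, which the platform annotation ties to the same sequence record as 1387882_at, gave 19498.5 and 10678 in MCAO candesartan, against 16177.8 and 22665.8 in sham candesartan. With vehicle it gave 21453.7 and 20297.1 after MCAO, against 24171 and 17856.4 after sham. The groups overlapped in both pretreatments, and the lowest array was MCAO candesartan 2. The effects were -0.40 ± 0.25 with candesartan and 0.01 ± 0.25 with vehicle. The probe set 1390076_at was dim, at 249 to 651.9 over the 8 arrays, and its groups overlapped in every comparison. Without the filter its effect over both pretreatments was 0.06 ± 0.18 (adjusted p = 0.950 by limma).

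**Figure D2:**
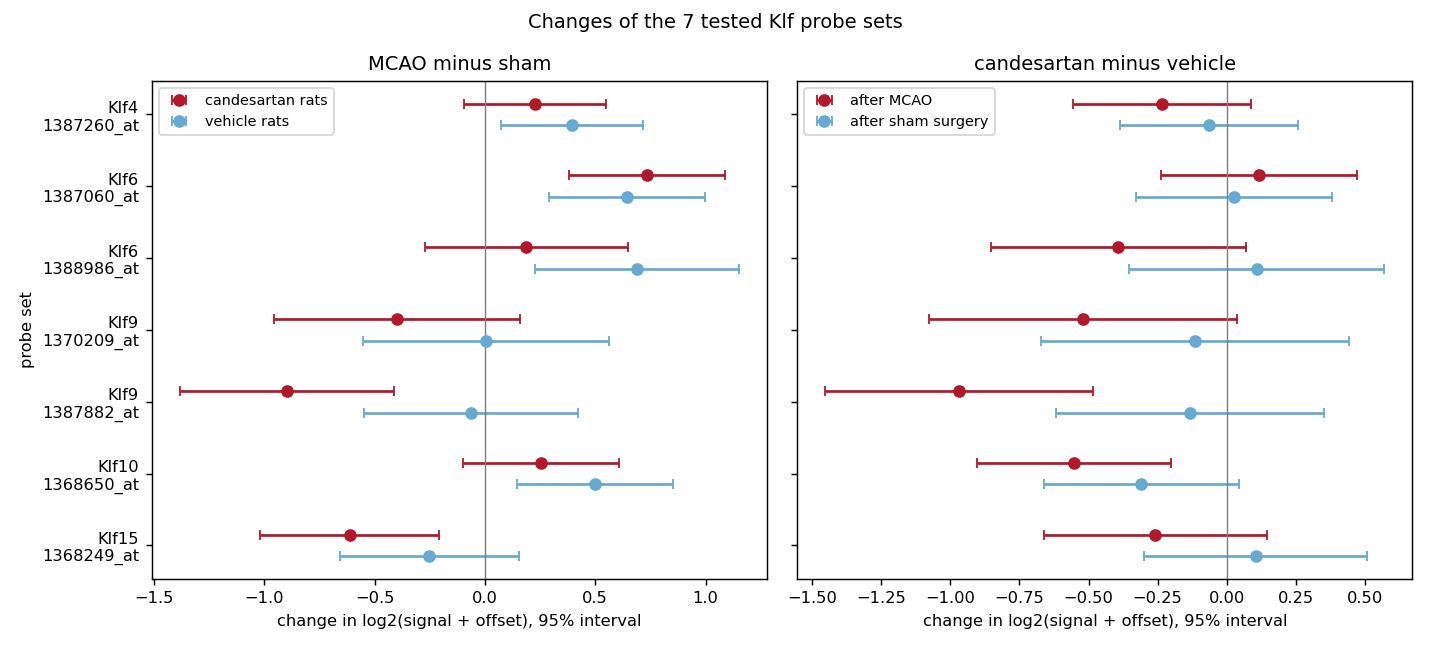
Change in log2(signal + offset) with its 95% interval for the 7 tested Klf probe sets (y axis), for MCAO minus sham on the left and candesartan minus vehicle on the right. Klf6 1387060_at lies at 0.74 in candesartan and 0.65 in vehicle rats, and Klf9 1387882_at has the lowest drug change after MCAO, -0.97.

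Across the 5 genes the sign of the MCAO change differed, and only Klf6 1387060_at was called over both pretreatments. The tested Klf9 probe sets, 1370209_at and 1387882_at, were near 0 in vehicle rats, at 0.01 and -0.06. In candesartan rats they were at -0.40 and -0.90. Over both pretreatments the Klf4, Klf6 and Klf10 probe sets were above 0 and the Klf9 and Klf15 probe sets that passed the filter below it, 4 against 3, with a median of 0.31 beside -0.01 for all 10310. The unadjusted p was under 0.05 for 6 of 7, against 9.52% of all probe sets, and for 4 of 7 with vehicle and 3 of 7 with candesartan, against 7.04% and 12.4%. After adjustment 0 of 7 were called with vehicle and 0 of 7 with candesartan, where 0.262% and 0.242% of all probe sets were. All MCAO arrays lay above all sham arrays for 2 of 7, against 2.83% of all probe sets, and below them for 0 of 7, against 2.39%. Within vehicle rats groups did not overlap for 4 of 7, all higher after MCAO (24.6% of all probe sets), and 0 were lower (20.6%). Within candesartan rats 2 were higher (16.9%) and 2 lower (21.4%). Calls in candesartan rats depended on which of the 2 MCAO candesartan arrays was kept. With MCAO candesartan 2 alone, the array that stood apart, and its spread taken from the other groups, 4 of 7 were called, Klf6 1387060_at at 0.73, Klf9 1370209_at at -0.82, Klf9 1387882_at at -1.28 and Klf15 at -0.82 (adjusted p = 0.0403, 0.0382, 0.00254 and 0.0320 by limma), beside 834 probe sets in all. With MCAO candesartan 1 alone 0 of 7 were called, and these probe sets had 0.74, 0.03, -0.51 and -0.41. Over both pretreatments MCAO candesartan 2 alone gave 4 calls of 7, which were Klf6 1387060_at, Klf6 1388986_at at 0.57, Klf9 1387882_at at -0.67 and Klf15 at -0.53, beside 388 in all. With MCAO candesartan 1 alone Klf6 1387060_at was the 1 call of 7, and the other 3 had 0.31, -0.29 and -0.33. These calls, other than that of Klf6 1387060_at over both pretreatments, thus rested on 1 array and are not results on the genes. The Klf6 call in turn depended on the filter, which that probe set met through its MCAO arrays alone. It was lost without the filter, without any 1 sham array and without either MCAO vehicle array. The same probe set is 1 of the 6 of 7 and 1 of the 2 of 7 counted above over both pretreatments. Since the genes were chosen with results known, these shares describe them and are not a test of the family.

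**Figure D3:**
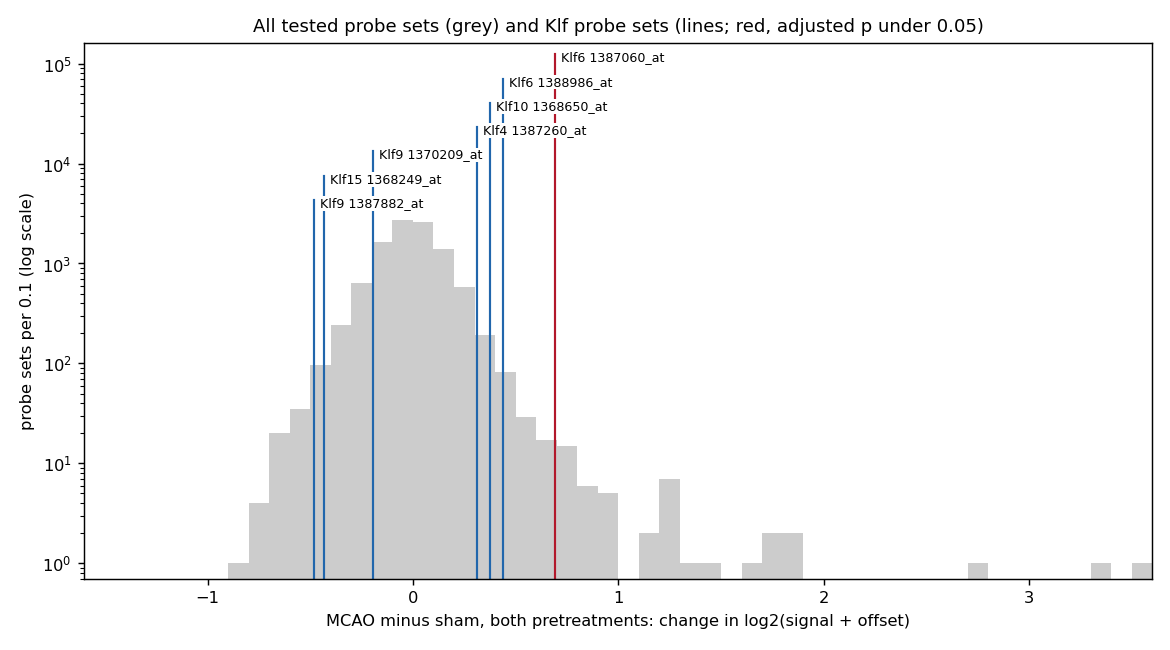
Number of probe sets per 0.1 of change (y axis, log scale) by MCAO minus sham over both pretreatments, with the 7 Klf probe sets as lines at heights that only separate their labels. Klf6 1387060_at at 0.69, in red, was called, and the other 6 lie between -0.48 and 0.44.

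The comparison of candesartan with vehicle asked whether the drug changed these genes. After MCAO 6 of 7 Klf probe sets were below 0, with a median of -0.39 beside -0.03 for all probe sets, of which 44.2% were above 0. Of the 7, 0 were called, where 0.0679% of all were. The unadjusted p was under 0.05 for 2 of 7, against 13.1%. Klf9 1387882_at had -0.97 ± 0.22 (adjusted p = 0.195 by limma, 95% interval -1.45 to -0.48), and Klf10 had -0.55 ± 0.16 (adjusted p = 0.251 by limma, 95% interval -0.91 to -0.20). Klf9 1370209_at had -0.52 ± 0.25 (95% interval -1.08 to 0.04), and the dim Klf9 1390076_at, without the filter, -0.05 ± 0.25. Klf6 1387060_at had 0.12 ± 0.16 (95% interval -0.24 to 0.47) and the other Klf6 probe set -0.39 ± 0.21 (95% interval -0.85 to 0.07). The candesartan and vehicle pools did not overlap for 5 probe sets lower with the drug (23.8% of all), those of Klf4, Klf9 1370209_at, Klf9 1387882_at, Klf10 and Klf15, and for 1 higher, Klf6 1387060_at (18%).

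The MCAO candesartan arrays are shared by this comparison and the MCAO effect in candesartan rats, so that the values stand side by side and do not support each other. Leaving out either array moved them. Without MCAO candesartan 1 the group held MCAO candesartan 2 alone, the array that stood apart, and the fit took its spread from the other groups. Then 3 of 7 probe sets were called, Klf9 1387882_at at -1.35, Klf9 1370209_at at -0.94 and Klf10 at -0.72 (adjusted p = 0.00197, 0.0217 and 0.0272 by limma), and the count over all probe sets was 984. Without MCAO candesartan 2 these were -0.58, -0.10 and -0.38 and 0 were called.

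After sham surgery 0 of 7 were called for the drug, as for 0% of all 10310 probe sets, and the unadjusted p was under 0.05 for 0 of 7, against 3.92%. The values lay between -0.31 for Klf10 and 0.11 for the Klf6 probe set 1388986_at. The pools did not overlap for 1 probe set higher with the drug, Klf6 1388986_at (18.9% of all), and for 1 lower, Klf10 (14.9%).

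The interaction tested directly whether the MCAO effect differed between candesartan and vehicle rats. It was called for 0 of 7 Klf probe sets, against 0.0194% of all, and the unadjusted p was under 0.05 for 1 of 7, against 8.87%. Klf9 1387882_at had -0.84 ± 0.31 (adjusted p = 0.540 by limma, 95% interval -1.52 to -0.15). With MCAO candesartan 2 alone in its group, its spread taken from the other groups, it had -1.22 (adjusted p = 0.0216 by limma), beside 298 calls in all. With MCAO candesartan 1 alone it had -0.45 (adjusted p = 0.488 by limma), so that this call rested on the 1 array that stood apart. For Klf6 the differences were 0.09 (95% interval -0.41 to 0.59) for 1387060_at and -0.50 (95% interval -1.16 to 0.15) for 1388986_at. Klf9 1370209_at had a difference of -0.40 (95% interval -1.19 to 0.39). Without the filter the dim Klf9 probe set 1390076_at had -0.28 (95% interval -1.10 to 0.54). The intervals for Klf4, Klf10 and Klf15 all held 0, at -0.62 to 0.29, -0.74 to 0.25 and -0.93 to 0.21.

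Of the markers of other cells 0 were called in any contrast, and their levels are given for the same arrays. The 2 blood markers above the filter were Hbb and Alas2. Relative to sham vehicle their mean was -0.78 to -0.38 in MCAO candesartan and -0.04 to -0.01 in MCAO vehicle. Alas2 read 3511.3 on MCAO candesartan 1 and 1756.6 on MCAO candesartan 2, the array that stood apart. Relative to the same group the 7 microglia and macrophage markers were at -0.24 to -0.19 in MCAO candesartan and -0.09 to -0.02 in MCAO vehicle. The 9 astrocyte markers were at -0.34 to 0.01 in MCAO candesartan and -0.24 to -0.16 in MCAO vehicle, and in vehicle rats 9 of 9 were below 0 after MCAO. The 7 endothelial and mural markers were at -0.12 to -0.05 in MCAO candesartan and 0.01 to 0.10 in MCAO vehicle. The 8 neuron markers were at 0.03 to 0.09 in MCAO candesartan and -0.12 to -0.04 in MCAO vehicle, and 6 of 8 were above 0 for the drug after MCAO. The 6 oligodendrocyte markers had a median of -0.21 for the drug after MCAO, with 4 of 6 below 0. Summed signals of the 4 blood markers on the array, of 5 listed, were 80268 to 82408.7 in MCAO candesartan and 94604.5 to 110402.5 in sham candesartan, and 89863.6 to 96583.6 in MCAO vehicle and 93531.1 to 103826.2 in sham vehicle. Over the arrays Hbb read 75962.8 to 104739.1 and Alas2 at most 5675.4, so that these sums were nearly all Hbb. No marker read 0, the lowest being S100a8 at 20.5. The part of these shifts in the Klf values was not tested. In bulk tissue fewer cells of a type and less RNA per cell cannot be told apart.

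The genes of most similar pattern were found by the root-mean-square difference, over the 8 arrays, between log2 profiles centred on their own means, among 8669 or 8670 named probe sets. The arrays share the 4 groups and these distances are descriptions. For Klf6 1387060_at, whose own profile had a root mean square of 0.35, the nearest were Btg1, an antiproliferative factor, at 0.11, Rbm24, an RNA-binding protein gene, at 0.11 and Egr2, an immediate early transcription factor, at 0.12. Egr2 read 2538 and 2854.8 in MCAO candesartan, against 1431.7 and 1151.3 in sham candesartan, and 2593 and 2394 in MCAO vehicle, against 1421.2 and 1481.7 in sham vehicle.

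**Figure D4:**
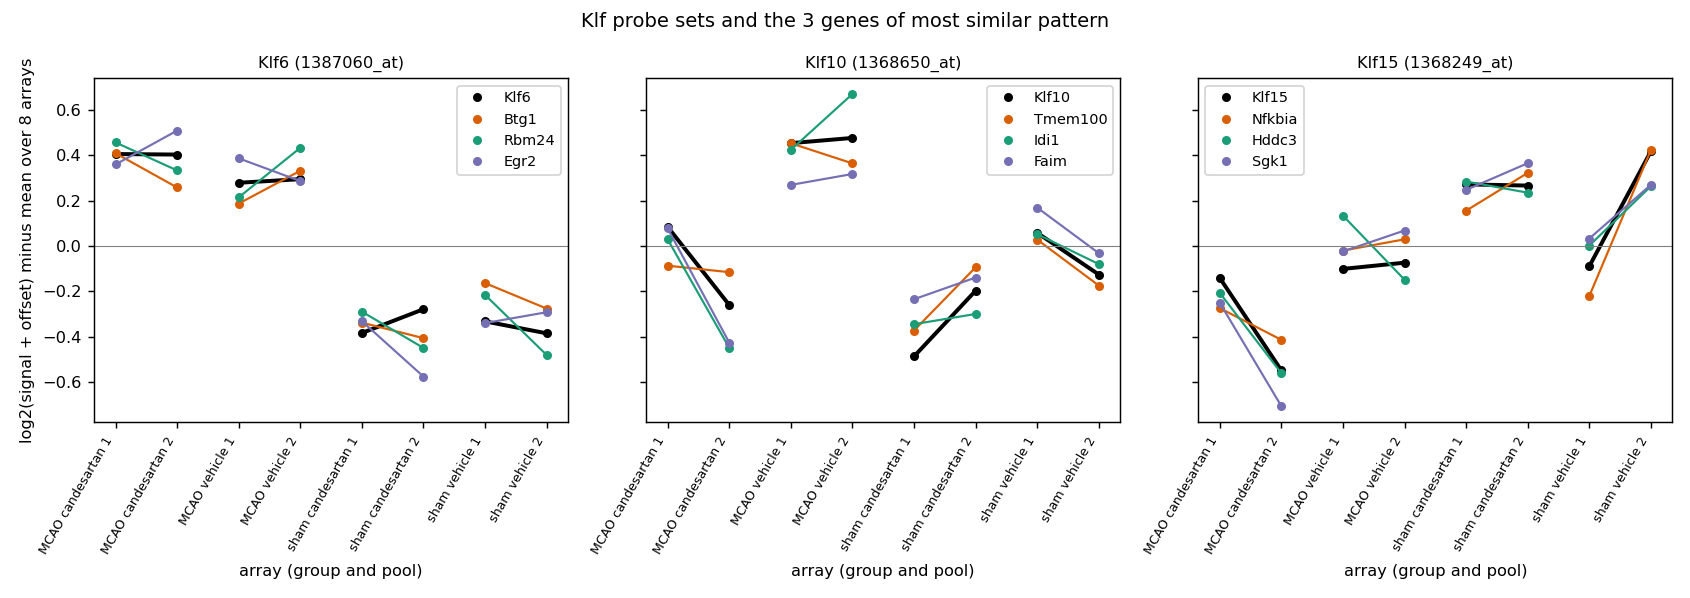
Centred log2 profiles (y axis) over the 8 arrays (x axis) of Klf6 1387060_at, Klf10 and Klf15 in black, each with the 3 genes of most similar pattern in colour, lines joining the 2 pools of a group. Klf6 separates MCAO from sham arrays, Klf10 peaks in MCAO vehicle and Klf15 is lowest in MCAO candesartan 2.

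The other Klf6 probe set lay nearest to Bag3, a co-chaperone gene, at 0.13, then Ttc7a and Tiparp. Klf4 lay nearest to Lmna, the gene of lamin A and C, at 0.06, then Polr1a and Arid4a, both at 0.07. Klf10 lay nearest to Tmem100 at 0.11, then Idi1 and Faim. Klf15 lay nearest to Nfkbia, the gene of an inhibitor of NF-kB, at 0.10, then Hddc3 and Sgk1, a kinase gene. Klf9 1370209_at lay nearest to Fkbp3 at 0.07, then Pgpep1 and Gucy1b1. Klf9 1387882_at lay nearest to Alas2, the heme synthesis enzyme of red cell precursors, at 0.11, then Araf at 0.13 and Cp at 0.14. Alas2 read 3511.3 and 1756.6 in MCAO candesartan, against 5446.4 and 3945.7 in sham candesartan, and 5248.5 and 5026.5 in MCAO vehicle, against 4377.6 and 5675.4 in sham vehicle. Like Klf9 1387882_at, it was lowest in the 2 MCAO candesartan pools, and it is 1 of the 2 blood markers above the filter. Araf and Cp, which are not on the blood marker list, were lowest in the same pools. There Araf read 2996.9 and 1126.7 and Cp 815.8 and 171. Alas2, Araf and Cp each had their lowest signal on MCAO candesartan 2, the array that stood apart.

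The rest of the family was less well covered. Of 22 other Klf and Sp genes 8 had a probe set and 5 were tested, with 0 called in any of the 6 contrasts. Their median MCAO change over both pretreatments was 0.08. Klf2, a factor of vessel endothelium, had 0.34 ± 0.14 (adjusted p = 0.458 by limma) on its brightest probe set, which averaged 2297.7 ± 160.1 in MCAO candesartan and 1685.9 ± 636.7 in sham candesartan, and 1841.6 ± 51.6 in MCAO vehicle and 1456.1 ± 120.3 in sham vehicle (SD, n = 2 pools). Klf3, Klf13, Klf16 and Sp1 had changes between -0.14 and 0.09.

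The partners and upstream pathways of Klf proteins were counted by list. Of 12 coregulators 9 were tested, among them Sin3b and the CtBP corepressors but not Sin3a. For MCAO over both pretreatments their median was 0.01 and 0 were called, where 0.417% of all probe sets were. Of 21 genes of the transforming growth factor beta pathway, which induces Klf10, 14 were tested, with a median of -0.05 and 0 called. After MCAO, candesartan against vehicle gave a median of 0.02 for these 14, with 7 above 0, 7 below and 0 called. Those with the smallest p were Skil, a repressor of this pathway, at -0.48 (adjusted p = 0.260 by limma), then Id2 and Eng. Id2 had 0.53 and Eng, a coreceptor gene, 0.86 (adjusted p = 0.264 by limma for both). Of 16 glucocorticoid genes 13 were tested, with 0 called in any contrast. They had a median MCAO change of -0.17 with candesartan and 0.17 with vehicle. Nr3c2, the mineralocorticoid receptor gene, had -0.60 over both pretreatments (adjusted p = 0.0587 by limma), Sgk1 -0.46 (adjusted p = 0.143 by limma) and Dusp1, a phosphatase gene, 0.44 (adjusted p = 0.198 by limma). For candesartan against vehicle after MCAO 11 of 13 were below 0, with a median of -0.21 beside -0.03 for all probe sets. Of all probe sets 44.2% were above 0. The 2 of this list above 0 were Dusp1 at 0.50 and Fkbp5 at 0.13. The MCAO candesartan group includes the array that stood apart, and its part in these values was not tested. With 2 pools a group no contrast between 2 groups could give an exact p under 0.333 for 1 gene, so that the values given rest on limma's spread pooled over probe sets.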

How the data were processed

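The authors deposited 1 table of linear intensity values for 8 arrays. The Affymetrix program GCOS appears in the submitters' processing notes; its settings are not stated there. The scaling between arrays was kept. Of 15923 probe sets 57 controls were left out and 10310 were tested, those above 916.3, the 40th percentile of all values, on at least 2 arrays. An offset of 369.9, the 20th percentile, was added before log2, which understates changes of dim genes. All 4 groups were fitted in 1 limma model (version 3.58.1, R 4.3.3) with a variance trend and Benjamini-Hochberg adjustment over all tested probe sets, for 6 contrasts, with 0.05 on the adjusted p as the threshold for a call. The method was tested on simulated data.

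Symbols came from the platform annotation (12783 probe sets with 1 symbol, 312 with several, 2771 with none). All 8 Klf probe sets and the gene lists were named by rule, with the 3 nearest patterns for each. The members and lists were chosen with earlier results of these data known. The series' design text calls the 2 pools of a group independent, and p-values measure the spread between pools. The number of arrays limits the precision. Protein sequences were not used here. Alternatives covered scaling, offset, filter, the groups fitted, the pool number as a block, and each array left out in turn.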

Additional observations from a re-analysis of the deposited data

How the results depend on the processing

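Of 658 recomputed Klf values 15 changed sign and 18 crossed the threshold. Without the filter the calls were 12 for MCAO in vehicle rats, 16 in candesartan rats, 0 for candesartan after MCAO and 0 for the interaction, and Klf calls over both pretreatments became 0. Fitting only the groups compared gave 93 calls for MCAO in vehicle rats, 11 in candesartan rats and 0 for candesartan after MCAO. For candesartan after MCAO the smaller offset gave 2 calls and the stricter filter 2, and the stricter filter gave 0 for the interaction. The pool number as a replicate block gave 4 calls for candesartan after MCAO and 0 for the interaction. Klf6 1387060_at then had an adjusted p of 0.0480 by limma over both pretreatments. Deviations of same-numbered pools correlated between -0.0951 and 0.137. The labels only number the pools, and whether same-numbered pools shared a batch was not tested. The drug change of Klf6 1387060_at after sham, 0.03, became -0.0319 with quantile normalization and -0.0288 with cyclic loess. The cause of these shifts was not tested.

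Leaving out 1 array at a time gave 7 to 39 calls for MCAO in vehicle rats, 5 to 834 in candesartan rats (Klf 0 to 4) and 23 to 388 over both (Klf 0 to 4). It gave 0 to 984 for candesartan after MCAO (Klf 0 to 3) and 0 to 298 for the interaction (Klf 0 to 1), the highest in the last 4 without MCAO candesartan 1. Changes that turned sign had these ranges. For MCAO in vehicle rats they were -0.21 to 0.22 for Klf9 1370209_at, -0.14 to 0.014 for Klf9 1387882_at and -0.50 to 0.0020 for Klf15 1368249_at. For MCAO in candesartan rats they were -0.076 to 0.45 for Klf6 1388986_at and -0.82 to 0.025 for Klf9 1370209_at. For MCAO over both they were -0.41 to 0.016 for Klf9 1370209_at. For candesartan after sham they were -0.35 to 0.12 for Klf9 1370209_at, -0.15 to 0.36 for Klf15 1368249_at, -0.16 to 0.028 for Klf4 1387260_at and -0.025 to 0.080 for Klf6 1387060_at. For the interaction they were -0.83 to 0.019 for Klf9 1370209_at.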
